A study of Homo sapiens with 4 samples.

Results

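Barcodes rich in mitochondrial transcripts were taken from 4 single-cell libraries of BEAS-2B, a human cell line from bronchial epithelium that was immortalized. A barcode was counted as MT-rich when the 13 mitochondrially encoded genes, whose symbols start with MT-, took more than 10% of its unique molecular identifiers (UMIs, the captured mRNA molecules counted per barcode). This rule selected 691 of 68085 deposited barcodes (1.01%), and the other 67394 served as the comparison. Cells received 10 mGy, 100 mGy or 1 Gy of Cs-137 gamma rays at 100 mGy per min, the control received none, and culture went on for 30 min after irradiation. Each dose was measured in 1 library from the droplet method of 10x Genomics and has no replicate, so dose cannot be told apart from library, and no test between doses was made.

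Human mitochondrial DNA encodes core subunits of respiratory complexes I, III, IV and V, and the remaining subunits are encoded in the nucleus and imported. In epithelial cells both sets serve oxidative phosphorylation, and their transcripts are made, processed and degraded separately. The share of mitochondrial transcripts per barcode is widely used as a quality measure in single-cell work. A high share is known from cells with damaged membranes and from cells with many mitochondria. Which of these applies to the MT-rich barcodes was not tested.

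The libraries held between 211752280 and 285806026 UMIs. Between 76 and 134 barcode sequences were shared by any pair of libraries, and 0 of them were MT-rich in both. Low-UMI barcodes, defined as those under the library median divided by 3, made up 30.1% of all barcodes. Doublets were kept. Intervals are exact 95% intervals (Clopper-Pearson for shares) and cover counting error only.

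The MT-rich share was 1.39% in the control (154 of 11111 barcodes, interval 1.18 to 1.62). At 10 mGy it was 0.995% (214 of 21514, interval 0.866 to 1.14). At 100 mGy it was 0.757% (151 of 19950, interval 0.641 to 0.887), and at 1 Gy it was 1.11% (172 of 15510, interval 0.95 to 1.29). The control was highest and 100 mGy lowest. The interval of 1 Gy overlapped those of the control and of 10 mGy, and that of 10 mGy overlapped that of 100 mGy. These intervals hold no spread between libraries of 1 dose, so neither overlap nor its lack compares doses. Above 15% of UMIs the control (0.882%) was again highest and 100 mGy (0.341%) lowest. The same held for barcodes whose exact interval of the share lay wholly above 10%, with 1.24% and 0.566%. This was not so under each definition. With a limit at 2 times the median share of each library, which lay at 11.5%, 8.34%, 8.58% and 10.8% in the control and in the irradiated libraries by rising dose, the shares were 1.15%, 1.44%, 1.25% and 0.877%, and 10 mGy was highest. Without low-UMI barcodes they were 0.548%, 0.421%, 0.249% and 0.683%, and 1 Gy was highest. Above 20% of UMIs the control was highest, with 0.747% (83 barcodes, interval 0.595 to 0.925). The 3 doses had 0.251% (54), 0.261% (52) and 0.348% (54) in rising order.

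**Figure D1:**
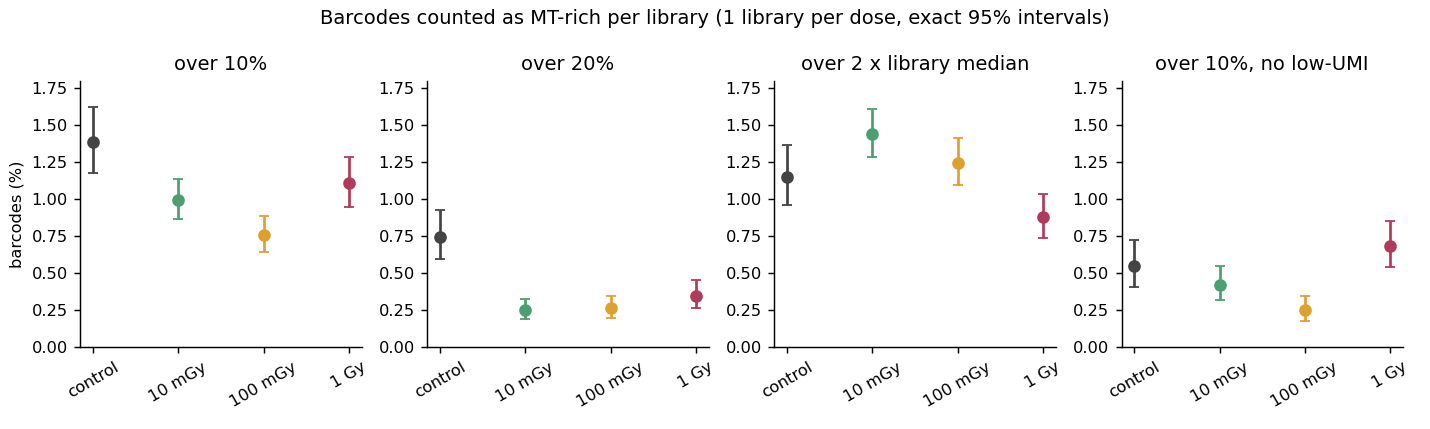
Percent of barcodes (vertical axis) counted as MT-rich in the control, 10 mGy, 100 mGy and 1 Gy libraries under 4 definitions, with points for the share and bars for exact 95% intervals. The highest library is the control at limits of 10% and 20%, 10 mGy at 2 times the library median, and 1 Gy without low-UMI barcodes.

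Values near the limit formed a continuum. Over the 4 libraries, 204 barcodes lay between 9% and 10% and 120 between 10% and 11%. Within the control, the highest share among the other barcodes was 9.97%, and the lowest among MT-rich barcodes was 10.0%. At the upper end, 243 barcodes exceeded 20%, 119 exceeded 30% and 15 exceeded 50%. Of those above 50%, the control held 13 and the 100 mGy library 2. The libraries of 10 mGy and 1 Gy held 0, which allows shares of up to 0.0171% and 0.0238% by the exact interval. The maxima were 65.1%, 37.1%, 52.2% and 47.6% in the same order of libraries. The median share of MT-rich barcodes was 23.3%, 15.5%, 13.9% and 13.4% in the control and at the doses in rising order, against 5.73%, 4.15%, 4.28% and 5.39% in the other barcodes.

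MT-rich barcodes were shallow. Since the share was selected on, and nuclear-encoded UMIs are part of its denominator, depth is given as a description. In that order, the median UMI count was 2785, 2573, 1725 and 4323.5, against 19935, 13949.5, 12482 and 14347 in the other barcodes. The ratio of the medians was 0.140, 0.184, 0.138 and 0.301. Mitochondrial UMIs were not more numerous per barcode, with medians of 937.5, 479, 432 and 750 against 1178, 605, 556 and 799. Nuclear-encoded UMIs were fewer, with medians of 2109, 2083.5, 1220 and 3388.5 against 18700, 13277.5, 11873 and 13508.5. At the median, MT-rich barcodes thus held somewhat fewer mitochondrial transcripts than the others and far fewer nuclear-encoded ones. Low-UMI barcodes made up 68.2%, 75.2%, 76.2% and 54.1% of MT-rich barcodes, against 18.9%, 41.1%, 27.1% and 25.1% of the others.

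**Figure D2:**
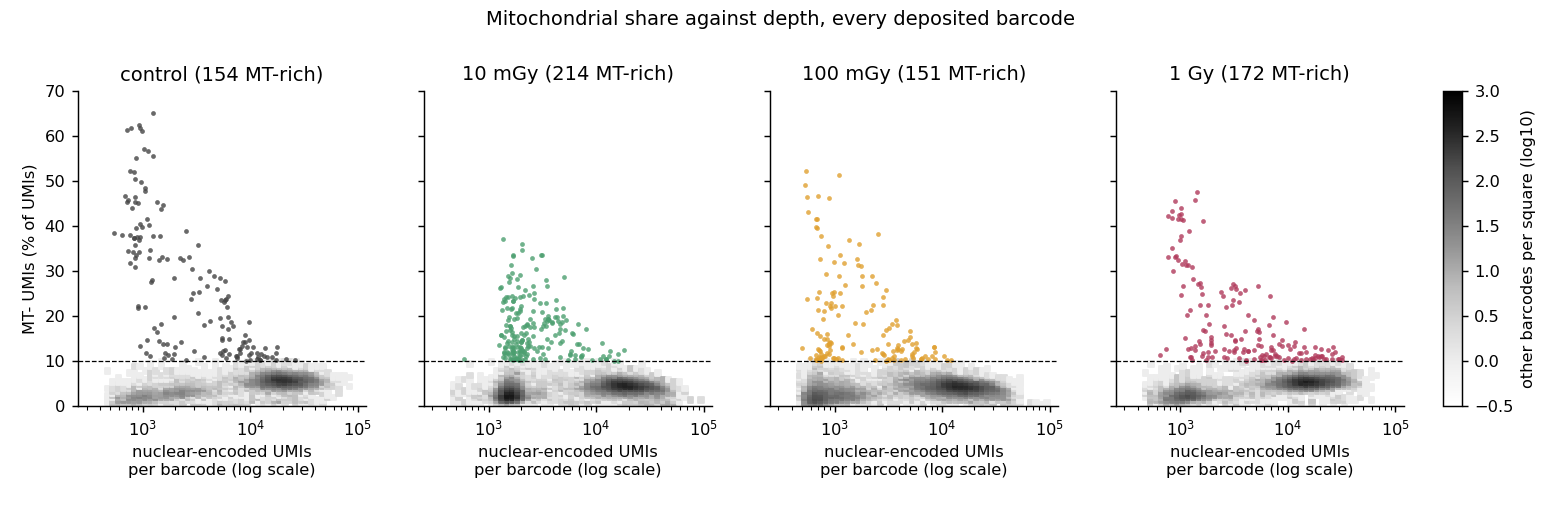
Mitochondrial UMIs as percent of all UMIs (vertical axis) against nuclear-encoded UMIs per barcode (horizontal axis, log scale), 1 panel per library. Coloured points are single MT-rich barcodes and grey squares count the other barcodes; the dashed line marks 10%. In each library the other barcodes fall into a deep and a shallow group, and MT-rich barcodes lie mostly at lower UMIs than the deep group.

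Most shallow barcodes were nevertheless poor in mitochondrial transcripts. Among the other low-UMI barcodes the median was 51 mitochondrial of 1750 UMIs in the control and 46 of 1660 at 10 mGy, and among MT-rich low-UMI barcodes of 10% to 15% in the same libraries it was 263.5 of 2155 and 252.5 of 2139. By depth, MT-rich barcodes were most frequent between the deep and the shallow group of the irradiated libraries. From 2000 to 5000 nuclear-encoded UMIs they made up 8.87% at 10 mGy (interval 7.15 to 10.8), 5.41% at 100 mGy (3.86 to 7.35) and 7.10% at 1 Gy (5.08 to 9.62). From 1000 to 2000 the shares were 1.20%, 1.77% and 2.02%. In the control the highest share was 9.35% (6.74 to 12.6), from 5000 to 10000, and 7.03% (5.04 to 9.48) of barcodes under 1000 were MT-rich. From 10000 to 20000 nuclear-encoded UMIs the shares were 0.385%, 0.173%, 0.0353% and 0.305% in the control and at the doses in rising order. At 20000 and over there were 14 MT-rich barcodes at 1 Gy, 2 in the control and 0 in the remaining libraries.

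**Figure D3:**
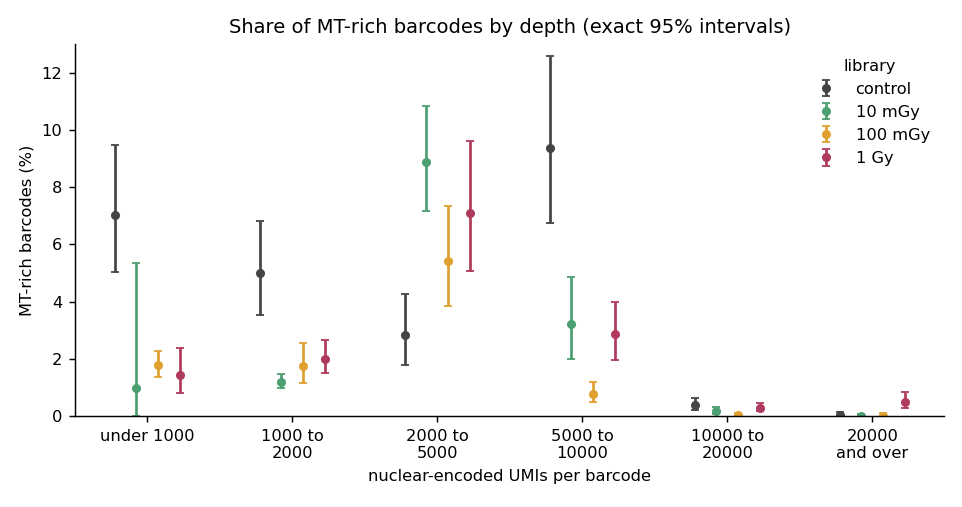
Percent of barcodes that were MT-rich (vertical axis) in 6 ranges of nuclear-encoded UMIs per barcode (horizontal axis), with exact 95% intervals as bars and 1 colour per library. The share peaks from 2000 to 5000 UMIs in the 3 irradiated libraries and from 5000 to 10000 in the control.

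The number of detected genes was close to that of other barcodes of like depth. Thinned to 1000 nuclear-encoded UMIs per barcode, MT-rich barcodes held medians of 764, 695, 693.5 and 750 nuclear-encoded genes in the control and at the doses in rising order. For each MT-rich barcode, the 10 other barcodes of its library nearest in nuclear-encoded UMIs were taken (each used once) as a depth-matched comparison, and these held 753, 685, 678 and 748. Barcodes under 1000 were left out, 39, 1, 63 and 15 of the MT-rich and 260, 10, 577 and 140 of the depth-matched. Unthinned, the medians were 1339.5, 1219.5, 829 and 2002 against 1441.5, 1137, 751 and 1953.

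All 13 mitochondrially encoded genes contributed to the high share, each being higher per nuclear-encoded UMI in each library. The rule used their sum, so only the make-up of that sum is described, with no test. MT-CO1, MT-CO2 and MT-CO3, the core subunits of cytochrome c oxidase, together with MT-ND4 of complex I, had been named as marks of these barcodes. MT-CO2 took 24.8%, 29%, 31.2% and 27.9% of mitochondrial UMIs in MT-rich barcodes, against 25.9%, 30.6%, 32.2% and 25.2% in the others. MT-CO1 took 13.9%, 12.6%, 10.5% and 12.4%, against 12.3%, 11.9%, 10.7% and 12.4%. For MT-CO3 the ratio of its share in MT-rich barcodes to that in the others lay between 0.976 and 1.04 over the 4 libraries. MT-ND4 was the one gene whose interval lay below 1 in each library, with ratios between 0.859 and 0.973. Ratios for MT-ND1, MT-ND2, MT-ND3, MT-ND5, MT-ATP6 and MT-CYB stayed between 0.804 and 1.13. The 3 genes of lowest level varied more, with 0.799 to 1.13 for MT-ND4L, 0.808 to 1.45 for MT-ATP8 and 0.548 to 1.52 for MT-ND6, which is encoded on the other strand of mitochondrial DNA. MT-CO2 and MT-CO3 took the largest shares in both kinds of barcodes.

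Nuclear-encoded transcripts were compared as UMIs of a gene per 1000000 nuclear-encoded UMIs (CPM), which the rule did not use. UMIs were summed over MT-rich and over other barcodes of each library, and the 4 pairs of sums were compared by edgeR's quasi-likelihood test with the library as a term, so the test asks for a difference shared by the 4 libraries, which differ in dose and are not replicates of one another. The sums of MT-rich barcodes held 678416, 705529, 373358 and 1115882 nuclear-encoded UMIs in the control and at the doses in rising order, and no barcode gave more than 3.81% of such a sum. Low-UMI barcodes, although most of the MT-rich ones, gave 28.4%, 46.6%, 42.2% and 15.4% of these sums. The sums thus follow the deeper MT-rich barcodes more than their number would give. Of 36588 nuclear-encoded genes, 8833 had at least 10 CPM in at least 4 of the 8 sums and were tested. At a Benjamini-Hochberg adjusted p under 0.05, 154 were higher in MT-rich barcodes (1.74% of those tested) and 92 were lower (1.04%). With TMM factors in place of the plain total the split was 129 higher and 128 lower. The median log2 difference over all tested genes was 0.01. Of the 246 genes past the threshold, 19 differed by more than 2-fold. The same direction in the 4 libraries was seen for 228, which a test for a shared difference favours. The number past the threshold changed when 1 library was left out, which also leaves fewer pairs to test. It was 24 higher and 18 lower without the control, 64 and 43 without 10 mGy, 46 and 13 without 100 mGy, and 413 and 166 without 1 Gy.

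Because MT-rich barcodes were shallow, the fit was repeated against the depth-matched barcodes. This gave 222 genes higher and 123 lower, and 176 of the 246 genes passed again in the same direction. Without low-UMI barcodes 58 were higher and 57 lower, of which 98 were among the 246 in the same direction. Among low-UMI barcodes alone 290 were higher and 64 lower.

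Among genes of at least 50 CPM on average and of 1 direction in the 4 libraries, the largest rise was that of LRRC75A (ENSG00000181350), a protein with leucine-rich repeats. It had 79.6, 129, 219.6 and 95 CPM in MT-rich barcodes of the control and of the doses in rising order, against 45.6, 48.0, 64.5 and 50.1 in the other barcodes. Each MT-rich sum was above each of the other sums (log2 difference 1.23, SE 0.13, edgeR adjusted p = 7.6e-09). Against depth-matched barcodes the log2 difference was 0.45 (adjusted p = 0.037), and above 20% of UMIs it was 0.79 (adjusted p = 0.069). AC015802.6 and AC008522.1, named only by clone, were higher by 0.92 and 0.91 on the log2 scale, and differed by 0.25 and 0.19 against depth-matched barcodes, where neither passed (adjusted p = 0.31 and 0.42).

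TGFBI (ENSG00000120708), a secreted matrix protein, had 655.9, 337.3, 358.9 and 530.5 CPM in MT-rich barcodes against 370.8, 201.9, 193.1 and 373.0 in the others (log2 difference 0.73, SE 0.09, edgeR adjusted p = 2.8e-07). The log2 difference was 0.63 against depth-matched barcodes. LRP1, a large endocytic receptor, had 140, 99.2, 56.2 and 89.6 CPM against 70.1, 45.8, 37.8 and 73.6 (log2 difference 0.75, SE 0.13, edgeR adjusted p = 4.1e-04). HSPG2, the basement membrane proteoglycan perlecan, had 129.7, 116.2, 107.1 and 161.3 CPM against 99.5, 63.0, 60.4 and 109. ADAMTS6, a secreted metalloprotease, had 126.8, 78.0, 91.1 and 159.5 CPM against 88.6, 51.1, 59.8 and 90.9. Each of these 4 genes was higher in MT-rich barcodes within every library, as the choice of genes required. Values of the groups overlapped across libraries. The remaining members of the 12 largest rises were PCSK7, a proprotein convertase, EMC1, a subunit of a membrane insertion complex of the endoplasmic reticulum, NFASC, an adhesion protein, CEP95, a centrosomal protein, and KCNQ1OT1. Their log2 differences lay between 0.61 and 0.74, and those against depth-matched barcodes between 0.36 and 0.81.

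**Figure D4:**
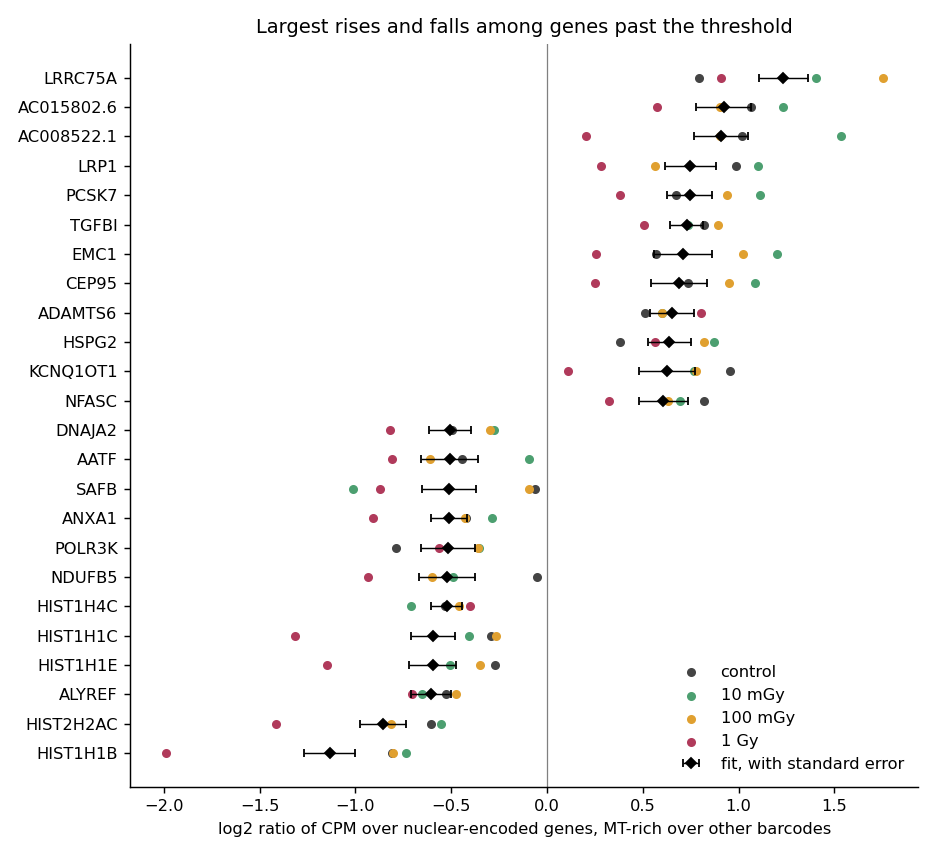
Log2 ratio of CPM over nuclear-encoded genes, MT-rich over other barcodes (horizontal axis), for the 12 largest rises and the 12 largest falls past the threshold. Coloured points are the 4 libraries, and black diamonds with bars are the fitted difference and its standard error. Rises were smallest at 1 Gy except those of LRRC75A, ADAMTS6 and HSPG2, which were smallest in the control, and falls of the linker histones were largest at 1 Gy.

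Transcripts of the secretory pathway were followed by a list of 26 genes for chaperones and translocon subunits of the endoplasmic reticulum and for secreted proteins, all of which were tested. In MT-rich barcodes 4 of them were higher and 0 lower, beside 1.74% and 1.04% over all genes, and the median log2 difference was 0.17, against 0.01 over all genes. FN1 (ENSG00000115414), fibronectin, had 3035, 1144, 945.5 and 1528 CPM in MT-rich barcodes against 1639, 650.9, 669.1 and 1556. It was higher in 3 libraries and level at 1 Gy (log2 difference 0.54, SE 0.10, edgeR adjusted p = 3.9e-04). HSPA5, the main chaperone of the endoplasmic reticulum, had 589.6, 377.0, 230.3 and 293.0 CPM against 340.7, 237.7, 202.2 and 316.3, and was also higher in 3 libraries but not at 1 Gy. SEC61A1, the channel subunit of the translocon, had 213.7, 137.5, 115.2 and 191.8 CPM against 142.2, 101.8, 88.6 and 155.7, and was higher in each library. SPARC, a matricellular protein, passed with a log2 difference of 0.33 (edgeR adjusted p = 0.047). Its call was lost in 13 of 17 alternatives, and those of HSPA5, SEC61A1 and FN1 in 8, 6 and 3. Without the control 0 of the 26 genes passed, and without 1 Gy 11 did. Of summed nuclear-encoded UMIs, the list took 1.66%, 1.00%, 0.930% and 1.10% in MT-rich barcodes against 1.22%, 0.871%, 0.839% and 1.18%. This summed share was lower only at 1 Gy. Per barcode the medians were 1.32%, 0.848%, 0.829% and 1.04% in MT-rich barcodes against 1.20%, 0.835%, 0.824% and 1.14% in the others. Depth-matched barcodes had medians of 1.14%, 0.787%, 0.817% and 1.10%. At 10 mGy and 100 mGy the medians of MT-rich and other barcodes thus lay near each other.

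Long noncoding RNAs that stay in the nucleus were represented by 6 genes, of which 5 were tested and 3 were higher, beside 1.74% over all genes. NEAT1 (ENSG00000245532), the scaffold of paraspeckles, had 5556, 5159, 3351 and 5407 CPM in MT-rich barcodes against 4104, 3094, 2261 and 4754 (log2 difference 0.48, SE 0.08, edgeR adjusted p = 2.3e-04). It was higher in each library, least so at 1 Gy. FTX, from the X inactivation centre, had 72.2, 51.0, 53.6 and 55.6 CPM against 44.9, 19.9, 19.1 and 46.9. KCNQ1OT1, an antisense transcript of the imprinted KCNQ1 locus, had 107.6, 51.0, 42.9 and 56.5 against 55.0, 29.6, 24.6 and 52.2. Whether counting used the strand is not given in the sources used here, so reads of antisense transcripts and their partners may not be told apart. Whether intronic reads were counted is not given either, and the values of RNAs that stay in the nucleus may depend on it. MALAT1 (ENSG00000251562), the most abundant of the list, did not pass (log2 difference -0.01, edgeR adjusted p = 0.98). It had 12970, 10749, 7952 and 9454 CPM against 13367, 8167, 7741 and 12700, and was lower in MT-rich barcodes in the control and at 1 Gy. TUG1 differed by 0.14 on the log2 scale (edgeR adjusted p = 0.65).

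The median log2 difference of the 5 genes was 0.48, and was 0.44, 0.74, 0.57 and 0.19 in the control and at the doses in rising order. Against depth-matched barcodes it was 0.68 and among low-UMI barcodes 1.11, with 3 and 4 genes higher. Without the 100 mGy library 0 of the 5 passed, and without the control or without low-UMI barcodes 1 did. Per barcode, the 6 genes took a median of 1.20%, 0.932%, 0.884% and 1.21% of nuclear-encoded UMIs in MT-rich barcodes. In the other barcodes the medians were 1.57%, 0.829%, 0.839% and 1.48%, and in depth-matched ones 1.14%, 0.651%, 0.681% and 1.24%. The sign of the difference between single barcodes thus changed with the comparison in the control, and was below 0 against both at 1 Gy.

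Within MT-rich barcodes, these RNAs did not follow the mitochondrial share in 1 direction. At 1 Gy they took 1.34% of nuclear-encoded UMIs in barcodes of 10% to 15% mitochondrial UMIs, 1.66% from 15% to 20%, 3.67% from 20% to 30% and 1.03% above 30%, against 1.76% in the other barcodes. In the control the values were 1.68%, 1.97%, 3.39% and 1.17% against 1.77%, and at 100 mGy 1.00%, 1.52%, 1.84% and 1.01% against 1.01%. At 10 mGy the peak lay from 15% to 20%, with 2.04% against 1.14%. The groups behind the 3.39% and the 3.67% held 23 and 28 barcodes, with medians of 3952 and 2428 nuclear-encoded UMIs. Above 30% there were 60, 10, 23 and 26 barcodes in the control and at the doses in rising order, with medians of 932.5, 2047.5, 870 and 1006 nuclear-encoded UMIs. In each library the upper range thus had lower values than a middle range, a difference that was not tested.

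**Figure D5:**
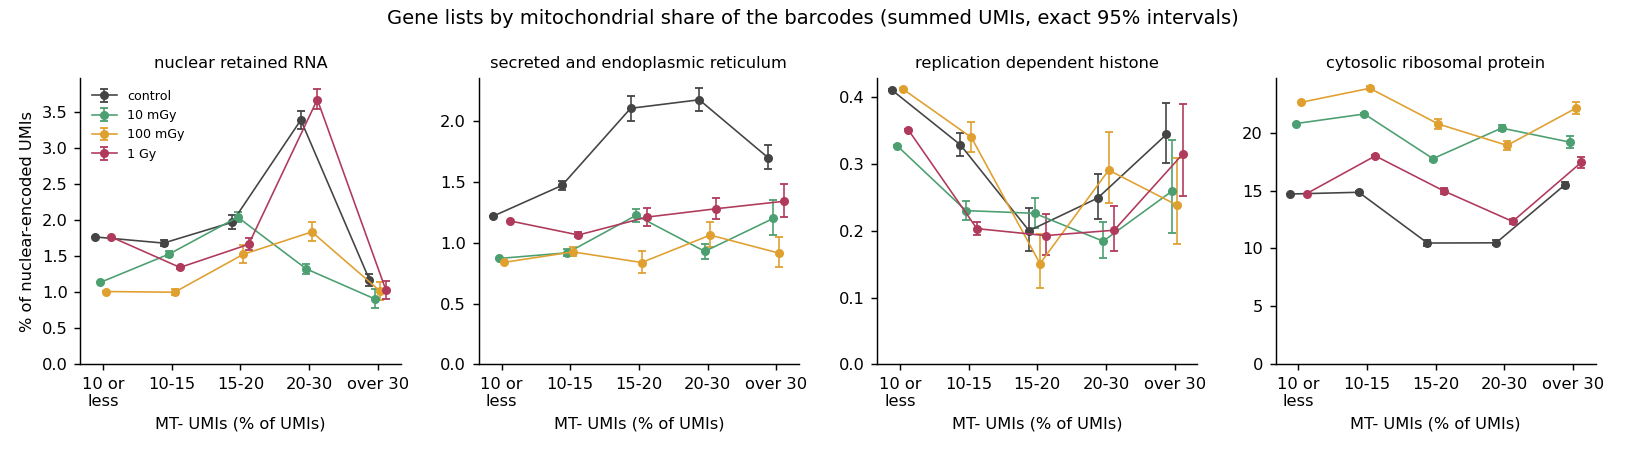
Percent of nuclear-encoded UMIs taken by 4 gene lists (vertical axes, from 0) in barcodes grouped by mitochondrial share (horizontal axes), with 1 colour per library and exact 95% intervals of summed UMIs. Nuclear retained RNAs reach 3.39% in the control and 3.67% at 1 Gy from 20% to 30%, against 1.17% and 1.03% above 30%.

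The largest falls among genes chosen in the same way were of histone transcripts. Of 64 replication-dependent histone genes, which supply histones to newly made DNA, 23 were tested, 10 were lower and 0 higher, beside 1.04% and 1.74% over all genes. The median log2 difference was -0.54, with library medians of -0.29, -0.27, -0.35 and -1.15, and without 1 Gy it was -0.32. HIST1H1B (ENSG00000184357), a linker histone, had 218.2, 80.8, 91.1 and 68.1 CPM in MT-rich barcodes against 383.3, 135.4, 159.9 and 273.2 (log2 difference -1.13, SE 0.13, edgeR adjusted p = 1.8e-07). It was lower in each library, as the choice of genes required, and most so at 1 Gy. The linker histones HIST1H1C and HIST1H1E were lower by 0.60 each on the log2 scale, and at 1 Gy had 124.6 and 86.9 CPM against 312.0 and 194.3. HIST2H2AC, a core histone, was lower by 0.86. HIST1H4C (ENSG00000197061), the most abundant of the list, had 1098, 1212, 2113 and 1195 CPM against 1588, 1983, 2901 and 1576 (log2 difference -0.52, SE 0.08, edgeR adjusted p = 3.8e-05). Against depth-matched barcodes this gene differed by only -0.07, while HIST1H1B differed by -0.82 and 7 of the histone genes were lower. Without the control or without 1 Gy 6 of the histone genes passed as lower, and above 20% of UMIs 3 did. Most of these mRNAs lack a poly(A) tail, by which the method captures RNA, and the gene copies are similar in sequence, so values of single copies are uncertain.

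Other genes of the cell cycle passed in few cases at the limit of 10%. Of 21 tested S phase genes, 0 passed in either direction by edgeR's adjusted p, and 1 had a log2 difference above 0, with a list median of -0.13. With a limit of 5% of UMIs 15 of them were higher and 0 lower. RRM2, a subunit of ribonucleotide reductase, differed by -0.02, and PCNA, the sliding clamp of replication, by -0.09. Of 22 G2/M genes, 3 were higher and 0 lower, beside 1.74% and 1.04% over all genes, while with a limit of 5% of UMIs 0 were higher and 22 lower. Above 15% of UMIs 8 of them were higher and 0 lower, and above 20% 7 and 0. CENPF, a kinetochore protein, had 692.8, 449.3, 506.2 and 551.1 CPM in MT-rich barcodes against 531.6, 327.0, 369.1 and 507.6 (log2 difference 0.35, edgeR adjusted p = 0.015). TOP2A, a DNA topoisomerase, and KIF20A, a mitotic kinesin, passed at an adjusted p of 0.046 each. None of the 22 passed without the control, without 10 mGy, without 100 mGy or without low-UMI barcodes.

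Nuclear-encoded partners of the mitochondrial transcripts were followed by lists, whose counts stand against 1.74% higher and 1.04% lower over all genes. Of 38 nuclear-encoded complex I genes 0 were higher and 1 was lower, and the median log2 difference was -0.03. The gene that was lower, NDUFB5, had 54.5, 63.8, 61.6 and 26.9 CPM against 56.6, 90.2, 93.8 and 52.2 (log2 difference -0.52, SE 0.15, edgeR adjusted p = 0.037). Its call was lost in 12 of 17 alternatives, among them each fit that left out 1 of the 4 libraries, and with a limit of 5% of UMIs 25 of the 38 genes were lower. NDUFA11 and NDUFA13 differed by 0.18 and 0.07. Of 34 genes of complexes III, IV and V, 0 passed in either direction, with a median of 0.02. With a limit of 5% of UMIs 0 of them were higher and 16 lower. ATP5F1E, a subunit of ATP synthase, had 1369, 2205, 2526 and 2244 CPM against 1474, 2033, 2230 and 1529, and differed by 0.19 (edgeR adjusted p = 0.24). Above 20% of UMIs 1 complex I gene and 0 of the other list were higher. Against depth-matched barcodes 3 complex I genes and 1 of the other list were lower, and the medians were -0.14 and -0.08, against 0.03 over all genes. Among low-UMI barcodes the medians were -0.13 and -0.15, against 0.05 over all genes, and above 20% of UMIs they were 0.12 and 0.04, against 0.04.

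Lists for other mitochondrial functions had counts near the share over all genes, which at 1.74% and 1.04% is below 1 gene for most of these lists. Of 25 tested genes for mitochondrial transcription, replication and RNA processing, 0 passed and the median was -0.07. TFAM, which packages and transcribes mitochondrial DNA, had 126.8, 123.3, 168.7 and 97.7 CPM against 116.2, 119.2, 120.5 and 111.2 (log2 difference 0.09, edgeR adjusted p = 0.75). LRPPRC, which stabilizes mitochondrial mRNAs, differed by -0.16 (edgeR adjusted p = 0.51). Of 76 tested mitochondrial ribosomal protein genes 0 passed, although 57 had a log2 difference below 0, and the median was -0.11. With a limit of 5% of UMIs 1 of them was higher and 32 were lower. Among 15 mitochondrial chaperones and proteases only HSPD1, the chaperonin of the matrix, passed. It had 722.3, 489.0, 559.8 and 531.4 CPM against 778.9, 655.5, 683.1 and 738.5 (log2 difference -0.32, SE 0.08, edgeR adjusted p = 0.022), and the call was lost in 8 of 17 alternatives, among them those without the control, without 10 mGy and without 100 mGy. Of 18 tested genes of mitochondrial dynamics, mitophagy and biogenesis 0 passed, with a median of -0.17, and BNIP3, a mitophagy receptor, differed by -0.26 (edgeR adjusted p = 0.15). Of 18 genes of the TCA cycle 0 passed, with a median of -0.03.

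Among cytosolic lists, actin and thymosin genes were lower in part. Of 15 genes 3 were lower and 0 higher, beside 1.04% and 1.74% over all genes, with a median of -0.17. TMSB4X, a thymosin that binds monomeric actin, had 2199, 3674, 2721 and 1645 CPM in MT-rich barcodes against 2772, 3880, 3183 and 2706 (log2 difference -0.34, SE 0.08, edgeR adjusted p = 0.015). CFL1, the actin severing protein cofilin, and TPM3, a tropomyosin, were lower by 0.28 and 0.33. Without the control or without 100 mGy 0 of the 15 passed, and without 1 Gy 6 did. HSPA8, the constitutive cytosolic chaperone, was the 1 heat shock gene of 12 that passed, with 700.2, 558.4, 498.2 and 496.5 CPM against 776.9, 684.9, 728.7 and 816.9 (log2 difference -0.43, SE 0.09, edgeR adjusted p = 0.0034). ENO1, a glycolytic enzyme, was the 1 of 16 glycolysis genes that passed, and was lower by 0.27. The call was lost in 4 of 17 alternatives for HSPA8, among them that without 100 mGy, and in 11 of 17 for ENO1, among them those without the control, without 10 mGy and without 100 mGy. Of 80 tested cytosolic ribosomal protein genes 0 passed, with a median of 0.04 and library medians of -0.08, -0.01, 0.01 and 0.20. The median was -0.03 against depth-matched barcodes. Among low-UMI barcodes it was -0.11, with 0 higher and 13 lower. Above 15% of UMIs 1 of the ribosomal protein genes was higher and 18 were lower, above 20% 1 and 12, and above 5% 2 and 39.

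Other transcripts with large falls were ALYREF, an adaptor of mRNA export, POLR3K, a subunit of RNA polymerase III, ANXA1, a phospholipid-binding protein, SAFB, a nuclear scaffold protein, AATF, a nucleolar protein, and DNAJA2, a cochaperone of HSPA8. ALYREF had 126.8, 129, 150 and 99.5 CPM in MT-rich barcodes against 183.0, 203.2, 209.0 and 162.6 (log2 difference -0.60, SE 0.10, edgeR adjusted p = 3.5e-04), and the groups did not overlap. ANXA1 had 343.4, 402.5, 415.2 and 207.0 CPM against 461.3, 491.4, 558.6 and 388.9. That it was lower in each library was required by the choice of genes. The 6 genes differed by between -0.60 and -0.51, and by between -0.53 and -0.41 against depth-matched barcodes. The call was lost in 12 of 17 alternatives for SAFB and in 11 each for AATF and POLR3K. It was lost in 5 for DNAJA2, 3 for ALYREF and 2 for ANXA1.

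In lists of stress responses the counts were also near the share over all genes. Of 20 tested p53 targets 1 was higher, CDKN1A, a cell cycle inhibitor, with 59.0, 68.0, 13.4 and 57.4 CPM against 30.2, 33.0, 25.9 and 30.5. It was higher in 3 libraries and lower at 100 mGy (log2 difference 0.80, SE 0.17, edgeR adjusted p = 0.0033). The 13.4 CPM at 100 mGy came from few UMIs, in a sum of 373358, so the direction in that library is uncertain. The call was lost in 9 of 17 alternatives, among them every other limit on the share and the fit without the control. GADD45A, another p53 target, differed by -0.31 (edgeR adjusted p = 0.10). Of 21 tested antioxidant genes TXNRD1, thioredoxin reductase, was lower by 0.38 and no other passed, and its call was lost in 6 of 17 alternatives, among them those without 10 mGy and without 100 mGy. No gene passed among 17 tested immediate early genes, 13 of the integrated stress response or 20 of cell death by edgeR's adjusted p. Their medians were -0.14, -0.02 and -0.05. The median of immediate early genes was 0.02 against depth-matched barcodes and 0.14 among low-UMI barcodes, with 9 higher at a limit of 5% and 4 lower at 15%. That of the integrated stress response was 0.24 among low-UMI barcodes. CYCS, cytochrome c, differed by -0.29 (edgeR adjusted p = 0.077).

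Transcripts of the line markers KRT7 and VIM had similar levels in both kinds of barcodes, which did not hold for each marker. Of 4 tested mesenchymal markers, 3 had a log2 difference above 0, FN1 passed as higher, and the median was 0.36. Of 4 tested epithelial markers, 3 lay below 0, 0 passed, and the median was -0.10. Summed over the 7 epithelial genes listed, the ratio to other barcodes was 0.962, 1.02, 0.879 and 0.808 in the control and by rising dose. RNA free in the droplets was not measured here, and its part in these levels was not tested. KRT7, an epithelial keratin, had 661.8, 528.7, 514.3 and 525.1 CPM against 685.3, 524.6, 616.5 and 631.4, and VIM, vimentin, had 3337, 2624, 2311 and 2256 against 2870, 2656, 2454 and 2489. Neither passed. Of 10 markers of immune, erythroid and endothelial cells, 7 had 0 UMIs in MT-rich barcodes, and CD74, VWF and PECAM1 had 1 UMI each over the 4 libraries. EPCAM and KRT19 were near 0 in both kinds of barcodes, with 4 and 7 UMIs in MT-rich ones, and the epithelial cadherin CDH1 had 0.

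Genes that were higher tended to be longer. Exonic length, matched for 8823 of the tested genes from GENCODE 29, had a median of 7252 bases among genes that were higher, 3855.5 among those that were lower and 5322 among all. Across genes, which are not independent, the Spearman correlation of the log2 difference with exonic length was 0.225, and 0.278 against depth-matched barcodes.

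Between doses, each class of barcodes was set against the control of the same class, and the values are given side by side. Cytosolic ribosomal protein genes had median log2 ratios to control of 0.63, 0.71 and 0.24 by rising dose within MT-rich barcodes, and of 0.53, 0.63 and 0.02 within the others. For nuclear-encoded complex I genes the medians were 0.74, 0.63 and -0.06 within MT-rich barcodes and 0.62, 0.71 and -0.03 within the others. For nuclear retained RNAs they were -0.49, -0.71 and -0.37 against -0.86, -1.03 and 0.02. Secretory genes had -0.50, -0.79 and -0.54 against -0.41, -0.55 and -0.04, and histone genes -0.68, -0.98 and -1.13 against -0.85, -1.09 and -0.33. The 4 mesenchymal genes had -1.09, -0.47 and -0.78 against -0.41, -0.30 and -0.04, and heat shock genes -0.33, -0.33 and -0.42 against -0.17, -0.03 and 0.04. Over all tested genes the medians were -0.28, -0.33 and -0.07 against -0.32, -0.40 and 0.02. Lists thus differed in how near the values of both classes lay, at low doses and at 1 Gy alike. With 1 library per dose these values have no replicate check.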

How the data were processed

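The authors deposited unnormalized counts of UMIs, with 36601 genes as rows and barcodes as columns, made with Cell Ranger 7.0.1 per the file headers. STAR and build GRCh37 are named in the submitters' processing notes, and no coordinates were used. Every deposited barcode entered, and 0 columns were left out. Counts were summed per library and class and fitted in edgeR 4.0.16 (R 4.3.3) with library and class as terms and the total of nuclear-encoded UMIs as library size. DESeq2 1.42.0 served as an alternative, and tables were made with Python 3.11.15, numpy 2.4.6, scipy 1.17.1 and pandas 2.3.3. The standard error was taken from the F statistic. Log2 ratios of single libraries and of doses used a pseudocount of 1 CPM. Members and gene lists were chosen with earlier results of these data known. The histone pattern and 1 other symbol were adapted to the symbols of the files after these had been opened. The named genes were the 13 MT- genes, the 12 largest rises and 12 largest falls past an adjusted p of 0.05 with at least 50 CPM on average and 1 direction in all libraries, and up to 4 genes of highest mean CPM per list; called members of the lists are also named. On simulated data for this comparison (8686 genes), the test called 100% of 4-fold, 92% of 2-fold, 81.8% of 0.5-fold and 0.0824% of unchanged genes. The simulation gave all genes the same dispersion and the same change in each library. Unchanged genes of both kinds of barcodes were drawn from the same profile, so rates in the real data may differ.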

Additional observations from a re-analysis of the deposited data

Results flagged for a closer look

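For 9 gene lists the summed share of nuclear-encoded UMIs in MT-rich barcodes, divided by that in the other barcodes, had counting intervals on opposite sides of 1 in different libraries. Each dose has 1 library, and the differences between libraries were not tested. The intervals take UMIs as independent and do not cover the spread between barcodes, so a few deep barcodes can move a ratio. For nuclear retained RNAs the ratio was 0.855 at 1 Gy (interval 0.842 to 0.868) and 1.41 at 10 mGy (1.39 to 1.44). For secreted proteins and those of the endoplasmic reticulum it was 0.928 at 1 Gy and 1.36 in the control, and for the mesenchymal markers VIM, FN1, CDH2, COL1A1 and COL1A2 it was 0.949 at 1 Gy and 1.41 in the control. Heat shock genes had 0.819 at 1 Gy and 1.07 in the control, and genes of the integrated stress response 0.908 and 1.10. Cytosolic ribosomal protein genes had 0.944 in the control and 1.18 at 1 Gy, and antioxidant genes 0.925 and 1.16. Medians per barcode for ribosomal protein genes were 15.1% against 14.7% in the control, where the ratio of sums was below 1. At 1 Gy they were 16.3% against 15.1%. These ratios of summed UMIs follow abundant genes. For nuclear retained RNAs at 1 Gy, where MALAT1 had 9454 CPM against 12700, the median log2 ratio over genes was 0.19. The median log2 ratio over antioxidant genes was -0.24 at 1 Gy, where the ratio of sums was above 1, and -0.11 in the control. In the control the median was -0.06 over heat shock genes and -0.03 over those of the integrated stress response. For these last lists the ratio of sums in the control was above 1. The 2 smallest contrasts were 0.960 at 1 Gy and 1.06 at 10 mGy for nuclear-encoded complex I, and 0.969 in the control and 1.09 at 1 Gy for complexes III, IV and V. In each of the 9 lists the 1 Gy library held the lowest or the highest ratio. MT-rich barcodes of that library were also the deepest, with a median of 4323.5 UMIs, and 15.4% of their nuclear-encoded UMIs came from low-UMI barcodes, against 28.4% to 46.6% in the other libraries. Among low-UMI barcodes at 1 Gy, nuclear retained RNAs took 1.76% of summed nuclear-encoded UMIs in MT-rich barcodes against 1.22% in the others. Among barcodes that were not low-UMI it was 1.46% against 1.78%. Secreted and endoplasmic reticulum genes had 1.13% against 1.06% and 1.09% against 1.18%. Complex I genes were lower in both, with 0.672% against 0.796% and 0.533% against 0.572%. The part of depth in these contrasts was not tested.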

How the results depend on the processing

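The fit paired both sums of each library through the library term. Between doses, no paired analysis was possible because each dose has 1 library. Depth limits single barcodes, since MT-rich ones held medians of 1220 to 3388.5 nuclear-encoded UMIs. Comparisons with low-UMI barcodes alone and with depth-matched barcodes were chosen after seeing the data. Against 154 genes higher and 92 lower, limits of 5%, 15% and 20% of UMIs gave 2426, 585 and 289 higher and 930, 229 and 130 lower. A limit of 2 times the library median gave 249 and 117, low-UMI barcodes alone 290 and 64, barcodes without low-UMI ones 58 and 57, and those of 5000 to 20000 nuclear-encoded UMIs 46 and 41. DESeq2 gave 84 and 55. In edgeR without the library term 0 and 0 passed, with 267 at an unadjusted p under 0.05. Leaving out 1 library gave 24 to 413 higher and 13 to 166 lower. TMM factors, totals without ribosomal protein genes and no filter on genes gave 129, 177 and 197 higher and 128, 79 and 77 lower.

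A limit of 5% counted 69.99%, 26.4%, 28.8% and 61.7% of barcodes in the control, 10 mGy, 100 mGy and 1 Gy libraries, and their median UMIs were 5.67, 6.17, 1.03 and 9.90 times those of the rest. At 15% the shares were 0.882%, 0.511%, 0.341% and 0.458%, at 20% 0.747%, 0.251%, 0.261% and 0.348%, at 2 times the median 1.15%, 1.44%, 1.25% and 0.877%, and without low-UMI barcodes 0.548%, 0.421%, 0.249% and 0.683%. With the whole interval above the limit, the shares were 1.24% in the control and 0.846%, 0.566% and 0.928% in the irradiated libraries by rising dose. The ratio of median UMIs was 0.110 at 15% and 0.101 at 20% in the control, and 0.148 and 0.128 at 1 Gy. Over nuclear-encoded UMIs it was 0.113, 0.157 and 0.103 in the control, 10 mGy and 100 mGy libraries.

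The median log2 difference of nuclear retained RNAs was 0.084 at 5%, 0.84 at 15%, 0.85 at 20% and 1.11 among low-UMI barcodes. That of actin and thymosin genes was -0.028, -0.27, -0.22 and -0.14 in the same order, -0.20 without low-UMI barcodes, -0.23 from 5000 to 20000 nuclear-encoded UMIs, -0.20 with TMM factors and -0.21 against depth-matched barcodes. That of histone genes was -0.0016 at 5%. At 5% the sign turned for LRRC75A (-0.098), AC015802.6 (-0.094), AC008522.1 (-0.061), CDKN1A (-0.065), CEP95 (-0.023), FN1 (-0.022), KIF20A (-0.28), COL1A1 (-0.25), CENPF (-0.15), TOP2A (-0.23), STC2 (-0.12), MKI67 (-0.16), UQCRQ (-0.093), MDM2 (-0.19), RPL10 (-0.060), NDUFA13 (-0.049) and HSP90AA1 (-0.058), and for RRM2 (0.059), SSR3 (0.059), PCNA (0.11), SQSTM1 (0.065), LRPPRC (0.073), MCM4 (0.12), HSPD1 (0.071), TPM3 (0.0069), TMSB4X (0.059), TXNRD1 (0.071), POLR3K (0.029), NDUFB5 (0.0044), HIST1H4C (0.030), HIST1H1D (0.11), HIST1H3D (0.050), HIST2H2AC (0.11) and HIST1H1B (0.019). At 15% and 20% it turned for FTH1 (-0.35, -0.41), RPLP1 (-0.28, -0.31), FTL (-0.36, -0.28) and MALAT1 (0.34, 0.32), and for MALAT1 also among low-UMI barcodes (0.34). The cause was not tested. Over all alternatives, single named genes kept their side of the threshold in 1733 cases, lost it in 270, passed newly in 62 and turned in 43. A turn of sign was counted, and is listed above, only for genes that passed in the main fit or in the alternative. Genes that passed in neither are among the 1733 whatever their sign.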
